A study of Mus musculus with 12 samples.

Results

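The matrix metalloproteinases (MMPs), the ADAMTS proteases and the tissue inhibitors of metalloproteinases (TIMPs) were followed in cultured colonic myofibroblasts that lack TNFR1. They were taken by gene symbol as every Mmp, Adamts or Timp gene followed by a number, and this gave 46 of the 24411 genes in the deposited table, of which 23 are MMPs, 19 ADAMTS proteases and 4 TIMPs. Messenger RNA was sequenced from 6 libraries of TNFR1-/- cells and 6 libraries of control cells, which were heterozygous (TNFR1-/+) and so carried 1 disrupted allele. All cells came from the distal colon of 16-week-old C57BL/6 mice, were cultured in serum with epidermal growth factor, were used at passage 6 to 8 and were harvested untreated 5 days after seeding in Matrigel, a basement membrane gel. Per the protocol in the labels, macrophages and epithelial cells had stopped dividing after the first passage, and the libraries were made strand-specific. Nothing in the sources used here says how many mice or cultures lay behind the libraries, so the p-values reflect the spread among the libraries alone, and that spread could be technical.

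MMPs are zinc enzymes that cut collagens, proteoglycans and other matrix proteins, and most are secreted or displayed as inactive precursors. A cysteine in the propeptide, the cysteine switch, holds the zinc until the propeptide is cleaved. ADAMTS proteases are secreted enzymes with thrombospondin repeats, of which some cut the proteoglycans aggrecan and versican and others remove the amino-terminal propeptide of fibrillar procollagens. TIMPs block the active site of MMPs, and TIMP3 also blocks several ADAM and ADAMTS enzymes. In the gut, fibroblasts and myofibroblasts are a main source of stromelysins and collagenases, and TNF is a classical inducer of several of them.

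A run of 10 successive protein-coding genes on mouse chromosome 9 consists of MMPs in RefSeq, in the order Mmp13, Mmp12, Mmp1b, Mmp3, Mmp1a, Mmp10, Mmp8, Mmp27, Mmp20 and Mmp7. In RefSeq windows of 300 bases that end shortly after the gene start (build GRCm38.p6), the AP-1 element TGAGTCA was searched on both strands. It was present in a window of 7 of these 10 genes and in none of the windows of the 22 other members that had one. The share of all 32851 RefSeq windows that held it was 5.2%, and 32 of the 46 members had a window. The windows of the 4 tested genes of this cluster are shown because each holds the element. Their levels are described further on, and the part of the element in those levels was not tested. They lie on the plus strand at chr9:7272264-7272563 for Mmp13, chr9:7347124-7347423 for Mmp12, chr9:7445572-7445871 for Mmp3 and chr9:7502092-7502391 for Mmp10, and capitals mark the AP-1 element.
Mmp13: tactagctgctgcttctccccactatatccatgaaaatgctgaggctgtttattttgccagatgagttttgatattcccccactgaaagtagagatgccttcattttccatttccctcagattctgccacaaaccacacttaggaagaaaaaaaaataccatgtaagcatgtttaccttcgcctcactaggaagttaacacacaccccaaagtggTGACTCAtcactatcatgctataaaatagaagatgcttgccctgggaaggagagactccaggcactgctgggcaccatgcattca
Mmp12: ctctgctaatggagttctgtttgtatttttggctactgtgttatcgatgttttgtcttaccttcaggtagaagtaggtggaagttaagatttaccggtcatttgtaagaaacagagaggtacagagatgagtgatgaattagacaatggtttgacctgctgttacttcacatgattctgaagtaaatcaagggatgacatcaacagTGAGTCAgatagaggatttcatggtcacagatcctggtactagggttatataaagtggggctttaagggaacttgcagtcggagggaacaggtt
Mmp3: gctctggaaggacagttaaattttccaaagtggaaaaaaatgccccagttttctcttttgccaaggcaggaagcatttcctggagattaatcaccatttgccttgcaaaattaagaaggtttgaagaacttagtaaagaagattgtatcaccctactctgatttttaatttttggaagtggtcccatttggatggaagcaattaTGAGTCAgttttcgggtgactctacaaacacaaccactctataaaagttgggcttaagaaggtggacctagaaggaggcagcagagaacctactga
Mmp10: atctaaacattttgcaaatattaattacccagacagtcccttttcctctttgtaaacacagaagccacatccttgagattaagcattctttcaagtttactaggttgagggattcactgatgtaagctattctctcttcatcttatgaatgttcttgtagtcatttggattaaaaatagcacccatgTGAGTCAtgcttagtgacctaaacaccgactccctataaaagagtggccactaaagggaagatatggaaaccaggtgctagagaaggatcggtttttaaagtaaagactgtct
The element began 35 bases before the start in Mmp13, 44 in Mmp12, 46 in Mmp3 and 63 in Mmp10. In Mmp13 the letters on the printed strand are those of the reverse complement. A consensus for NF-kB (kappaB) was found in windows of 5 members, namely Mmp12, Mmp25, Adamts9, Adamts13 and Adamts20, against 8.46% of all windows. For Mmp12 it lay in another window of the gene, which is not printed. These matches are descriptions of letters and not of bound sites.

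Before the members, the libraries themselves need description. Total counts were 6543013 to 9937008 in the knockout libraries and 11890729 to 16458689 in the control libraries. Profiles over all tested genes fell into 4 sets, namely the first 4 knockouts, the last 2 knockouts (5 and 6), the first 5 controls, and control 6 by itself. Libraries of the same set correlated at 0.989 to 0.998 (Spearman), libraries of different sets in one genotype at 0.926 to 0.954, and libraries of different genotypes at 0.882 to 0.976. Some knockout and control libraries were thus more alike than libraries of different sets in one genotype. The share of counts on Rn45s, the ribosomal RNA precursor, was 1.63 to 2.1% in knockout 1 to 4, 7.01 and 8.25% in knockout 5 and 6, 0.871 to 1.19% in control 1 to 5 and 0.351% in control 6, and the part of RNA quality in the results was not tested. Tnfrsf1a, the targeted gene, was at 40.6 to 46.1 CPM (counts scaled to the library's size) in the knockout libraries and 54.9 to 81.3 CPM in the control libraries (log2 difference -0.76, edgeR quasi-likelihood test, adjusted p = 9.24e-05), and a count over the whole gene cannot tell a disrupted transcript from an intact one. The fibroblast label was matched by its markers, of which all 11 were tested. Of these, Acta2, Tagln, Myl9 and Vim were higher in the knockout (36.4%, against 21.4% of all tested genes) and Pdgfra and Col3a1 lower (18.2%, against 21.6%). The part of cell state or cell mixture in the protease results was not tested. Of the 9 epithelial markers, Epcam, Cdh1 and Vil1 had at most 1 count in any library. The list summed to 14.9 to 23.3 CPM in knockout and 7.49 to 20.2 CPM in control libraries, most of it from Krt19 (mean 10.7 CPM in knockout and 7.33 CPM in control) and Krt20 (5.20 CPM in knockout and 1.94 CPM in control), and neither passed the test. Of the macrophage and leukocyte list, 7 of 10 tested markers were lower in the knockout (70%, against 21.6% of all tested genes) and none higher (against 21.4%). Of the 5 tested markers of the enteric glia and neuron list, Sox10, Ret and Tubb3 were lower (60%, against 21.6% of all tested genes). Uchl1 was higher (20%, against 21.4%). Of 2 tested endothelial markers Tek was lower (50%, against 21.6%). These lists are short, and Sox10 had at most 9 counts in a knockout library. The macrophage and leukocyte list summed to 38.9 to 58.2 CPM in knockout and 83.3 to 130.3 CPM in control libraries.

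Of the 46 members, 29 had enough counts to be tested, 13 were read in some library with at most 6 counts, and 4 had no count in any library. The 4 without a count were Mmp7 (matrilysin, an epithelial MMP), Mmp20 (the tooth enamel MMP enamelysin), Mmp21 and Adamts18. The 13 at or below 6 counts were Mmp1a, Mmp1b, Mmp8, Mmp24, Mmp25, Mmp27, Adamts8, Adamts13, Adamts16, Adamts17, Adamts19, Adamts20 and Timp4. Mmp8, the neutrophil collagenase, had no count in the 6 knockout libraries and at most 5 counts in a control library, and no neutrophil marker passed 4 counts. Adamts16 likewise had no count in the knockout and at most 3 counts in a control library. When no filter on low counts was applied, Mmp8 (adjusted p = 0.0314) and Adamts16 (0.0302) were called lower by edgeR, against 16.6% of 17461 genes in that fit, and the other 11 did not pass. Both calls rest on few counts, and the knockout libraries were the shallower ones. Levels of different genes can be set side by side only per length, for which CPM was divided by the length in kilobases of the longest coding transcript in GENCODE M21. On that scale Timp1 had the highest genotype mean of the members, with 658 CPM per kb in knockout and 386 in control cells. Next came Timp2 (580.2 in knockout and 358 in control cells) and the membrane-type protease Mmp14 (254 in knockout and 281 in control cells). This order of means did not hold in every set of libraries. Per length, Timp2 was above Timp1 in knockout 1 to 4 and in control 6, and Mmp14 was above Timp2 in control 1 to 5. Mmp2 stood at 52.9 CPM per kb in knockout and 165 in control cells. The lowest means of the 29 were those of Adamts15 in knockout cells, at 0.0603 CPM per kb, and Mmp15 in control cells, at 0.199. In knockout 1 to 4, however, Mmp9 was below Adamts15 per length.

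In the comparison of knockout with control, 6 of the 29 tested members were higher (20.7%, against 21.4% of all 12146 tested genes), 10 were lower (34.5%, against 21.6%) and 13 did not pass (edgeR quasi-likelihood test, adjusted p under 0.05 over all tested genes). The share of members called higher was thus near that of all genes. The median log2 difference was -0.54 over the tested members and 0.02 over all tested genes. By family, MMPs gave 3 higher, 5 lower and 6 not past, ADAMTS proteases 2 higher, 5 lower and 5 not past, and TIMPs 1 higher and 2 not past. In 7 members every knockout library was below every control library (24.1%, against 12.5% of all tested genes), and in none was every knockout library above (against 10.6%). Adamts15, which is counted in both the lower and the separate members, passed the filter through its control counts alone. In bulk RNA, fewer cells of a type and less RNA per cell cannot be told apart.

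**Figure D1:**
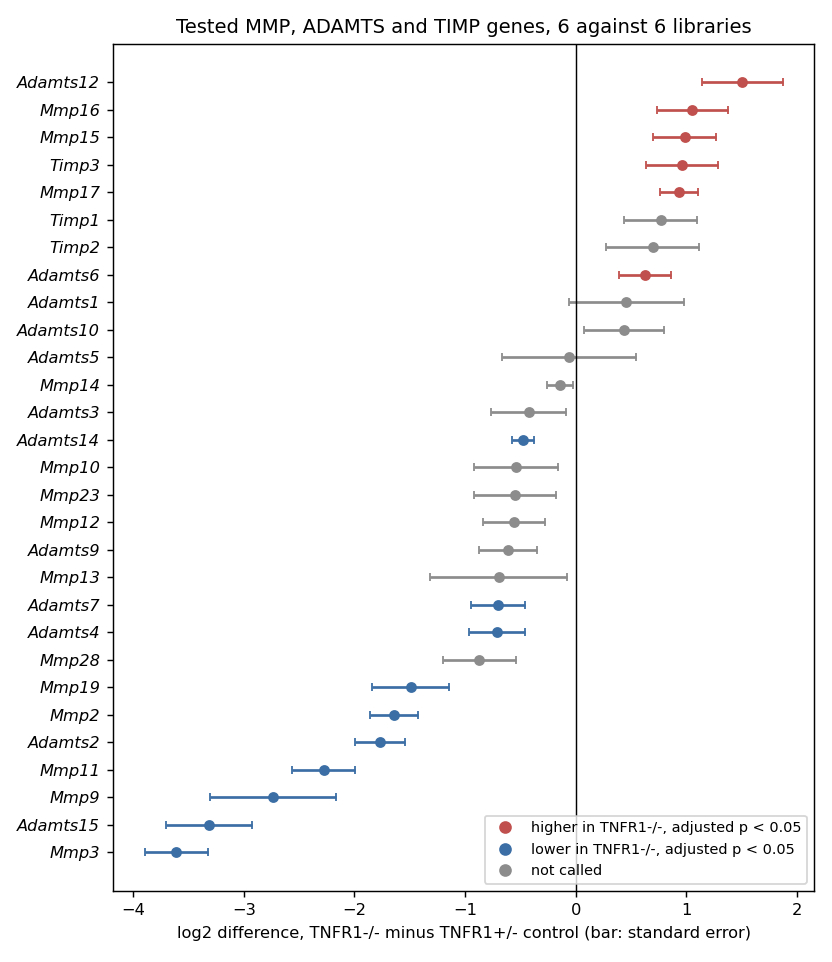
Log2 difference (TNFR1-/- minus control, horizontal axis) of the 29 tested members with its standard error from the edgeR fit over 6 knockout and 6 control libraries. Mmp3 stands lowest at -3.61 and Adamts12 highest at 1.51, and grey genes did not pass an adjusted p of 0.05.

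These calls depended on the libraries used. With knockout 5 and 6 left out, 8 members were higher and 10 lower (24.5% and 27.5% of all genes tested), and with control 6 left out as well, 11 were higher and 13 lower (34.9% and 36.4%). In that last fit genotype and set cannot be told apart. When counts were summed within the 4 sets and 2 knockout sums were tested against 2 control sums, edgeR called 0 of 13132 genes higher (0%) or lower (0%). In that edgeR test, 1047 genes (7.97%) and 6 of the 29 tested members had an unadjusted p under 0.05. Those 6 members were Mmp2, Mmp3, Mmp11, Mmp19, Adamts2 and Adamts15, and all 6 were lower in the knockout sums. limma-voom on the sums also called 0 genes (1096 genes, or 8.35%, had an unadjusted p under 0.05). DESeq2 called 199 of 13132 genes and 5 of the 29 tested members, namely Mmp2, Mmp3, Mmp11, Adamts2 and Adamts15.

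The stromelysins held the largest difference of the family, and 2 of the 3 were lower (66.7%, against 21.6% of all tested genes). Mmp3 encodes stromelysin-1, which cuts proteoglycans and fibronectin and activates other pro-MMPs. It was at 3.48 to 10.4 CPM in the knockout libraries (median 4.27) and at 46.3 to 86.4 CPM in the control libraries (median 78.2). Knockout 5 and 6 were the highest knockout libraries and control 6 the lowest control, and even the closest pair of libraries differed 4.46-fold. Mmp3 averaged 6.03 ± 3.06 CPM in knockout and 74.7 ± 14.5 CPM in control cells (SD, n = 6 each), a log2 difference of -3.61 (SE 0.29, edgeR adjusted p = 4.98e-06). Mmp11 encodes stromelysin-3, which is activated inside the cell by furin and is known from stromal fibroblasts around carcinomas. Its range was 39.3 to 87.6 CPM in knockout (median 84.7) and 147 to 389.6 CPM in control libraries (median 381). Within each genotype 1 set stood apart, with knockout 5 and 6 at 40.8 and 39.3 CPM and control 6 at 147 CPM. Mmp11 fell 4.85-fold (log2 difference -2.28, SE 0.28, edgeR adjusted p = 8.41e-05), and 1.68-fold between the closest pair of libraries.

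Mmp10, stromelysin-2, did not pass the test (log2 difference -0.54, SE 0.38, adjusted p = 0.272). It was at 7.13 to 8.47 CPM in knockout 1 to 4, 30.9 CPM in knockout 5, 28.4 CPM in knockout 6, 20.0 to 21.8 CPM in control 1 to 5 and 26.2 CPM in control 6. The knockout sets thus lay on opposite sides of all controls, and without knockout 5 and 6 the difference was -1.52 (adjusted p = 2.08e-06). Mmp3 and Mmp10 are close relatives, and 13.0% of the 36-base windows of either coding sequence occur in the other. Their longest identical coding run, taken from the GENCODE M21 transcripts, is shown because reads lying within it cannot be assigned to one gene. It spans 104 bases and holds the codons of the cysteine switch near its start, in capitals.
Mmp3 and Mmp10: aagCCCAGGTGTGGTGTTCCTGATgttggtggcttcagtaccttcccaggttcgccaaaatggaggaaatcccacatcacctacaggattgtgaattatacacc
The deposited counts of both genes had decimals, as shared reads give. How the authors' estimator split such reads was not tested, so both levels are uncertain to that extent.

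Both gelatinases fell. Mmp2 encodes gelatinase A, a constitutive product of fibroblasts that cuts denatured and basement membrane collagen. It was at 91.2 to 203 CPM in knockout libraries (median 196) and at 418 to 545 CPM in control libraries (median 519). Knockout 5 and 6 were at less than knockout 1 to 4, and the closest pair of libraries across genotypes differed 2.06-fold. The means were 163 ± 55.1 and 509 ± 46.9 CPM in knockout and control (SD, n = 6 each), a log2 difference of -1.64 (SE 0.22, edgeR adjusted p = 0.000112). Mmp9 encodes gelatinase B, which leukocytes also make, and was scarce. Its level was 0 to 0.158 CPM in knockout 1 to 4, 0.830 CPM in knockout 5, 0.931 CPM in knockout 6, 2.45 to 3.92 CPM in control 1 to 5 and 0.827 CPM in control 6. Control 6 lay between the levels of knockout 1 to 4 and knockout 5, so the groups overlapped. The log2 difference was -2.74 (SE 0.57, edgeR adjusted p = 0.00223) and -4.66 without knockout 5 and 6. Knockout 1 to 4 had 0 or 1 count each, so the latter value lies near the floor. Knockout 5 and 6 had 8 and 9 counts, and the control libraries 13 to 52. The macrophage list given above was lower in the knockout too, and its part in the Mmp9 result was not tested.

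The collagenase and metalloelastase genes that were tested did not pass. Mmp13 encodes collagenase-3, which cuts fibrillar collagen. It was at 0.898 to 1.70 CPM in knockout 1 to 4, 14.6 CPM in knockout 5, 13.5 CPM in knockout 6, 9.11 to 11.2 CPM in control 1 to 5 and 5.09 CPM in control 6 (log2 difference -0.70, SE 0.62, adjusted p = 0.385). As with Mmp10, knockout 1 to 4 were below and knockout 5 and 6 above all controls, and without knockout 5 and 6 the difference was -2.75 (adjusted p = 2.18e-05). Mmp12, the elastase typical of macrophages, was at 4.46 to 6.62 CPM in knockout (median 5.80) and 5.92 to 17.8 CPM in control libraries (median 6.61). Control 6 alone was high. The macrophage and leukocyte markers summed to 130.3 CPM in control 6 and 83.3 to 94.2 CPM in control 1 to 5, a difference carried mostly by Lyz2 (93.2 CPM in control 6 and 49.2 to 61.4 CPM in control 1 to 5). Among the controls, Csf1r, Adgre1 and Mrc1 were also highest in control 6, as were Ptprc and Aif1 by a small margin. Cd74, Fcgr1, Cx3cr1 and Fcer1g were lowest there, and the part of macrophages in the Mmp12 level was not tested.

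**Figure D2:**
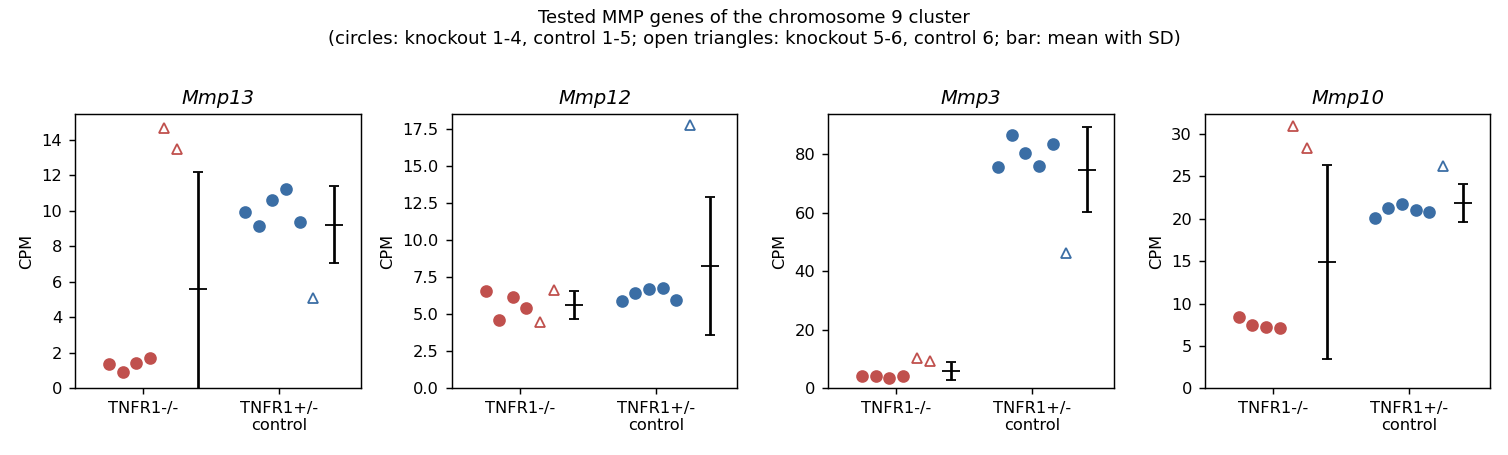
CPM per library of the 4 tested genes of the chromosome 9 cluster in gene order, TNFR1-/- left and control right, with the mean and SD of 6 libraries beside each group (the lower bar of Mmp13 passes 0 and is not drawn below it). Mmp3 is low in all 6 knockout libraries, while Mmp10 and Mmp13 are low in knockout 1 to 4 and above the controls in knockout 5 and 6.

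Membrane-type MMPs act at the cell surface, and 3 of the 4 tested rose (75%, against 21.4% of all tested genes). In none of them did every knockout library lie above every control library. Mmp17, anchored by a lipid tail, was at 10.8 to 19.6 CPM in knockout (median 16.7) and 6.82 to 10.9 CPM in control libraries (median 7.76). The ranges overlapped only where knockout 5 (10.8 CPM) and control 6 (10.9 CPM) were nearly equal. The log2 difference was 0.93 (SE 0.17, edgeR adjusted p = 0.000884). Mmp16 was at 12.7 to 16.1 CPM in knockout 1 to 4, 6.74 CPM in knockout 5, 5.48 CPM in knockout 6, 3.99 to 5.26 CPM in control 1 to 5 and 11 CPM in control 6 (log2 difference 1.06, SE 0.32, adjusted p = 0.0189). Mmp15 was near 1 CPM in the controls, at 0.931 to 2.87 CPM in knockout and 0.798 to 1.31 CPM in control libraries (log2 difference 0.99, SE 0.28, adjusted p = 0.014). For both genes knockout 5 and 6 lay within the control range and knockout 1 to 4 above it. Mmp14 (MT1-MMP), the main collagen-cutting enzyme of the fibroblast surface and the activator of pro-MMP2, had the highest level per length of the MMPs. It was at 648 to 926 CPM in knockout (median 893) and 866 to 1041 CPM in control libraries (median 888) and did not pass (log2 difference -0.14, SE 0.12, adjusted p = 0.336).

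The remaining MMPs gave 1 lower (33.3%, against 21.6% of all tested genes) and 2 not past. Mmp19, a secreted MMP of broad specificity, was at 14.5 to 63.6 CPM in knockout (median 58.0) and 106 to 136 CPM in control libraries (median 129). The 2 groups were separate, with knockout 5 and 6 at 14.5 and 14.9 CPM, and the log2 difference was -1.49 (SE 0.35, edgeR adjusted p = 0.00447). Mmp23, anchored to membranes by its amino-terminal end, was at 81.1 to 104 CPM in knockout 1 to 4, 20.0 CPM in knockout 5, 19.1 CPM in knockout 6, and 87.4 to 126 CPM in control libraries (adjusted p = 0.254). Mmp28, epilysin, was at 1.55 to 7.32 CPM in knockout and 4.32 to 9.72 CPM in control libraries (log2 difference -0.87, SE 0.33, adjusted p = 0.0501), and it passed without control 6 (adjusted p = 0.0197), without knockout 1 (0.0261) and without knockout 2 (0.0488). Reads of all 23 MMP genes together made up 898 to 1423 CPM in knockout and 1963 to 2195 CPM in control libraries, and the groups did not overlap in this sum. The MMPs with the largest differences in mean CPM were Mmp2 (163 in knockout and 509 in control) and Mmp11 (70.8 and 343). The sums of the other families overlapped. ADAMTS genes summed to 191 to 763 CPM in knockout and 569 to 996 CPM in control libraries, and TIMPs to 2800 to 4426 CPM and 1579 to 5319 CPM.

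**Figure D3:**
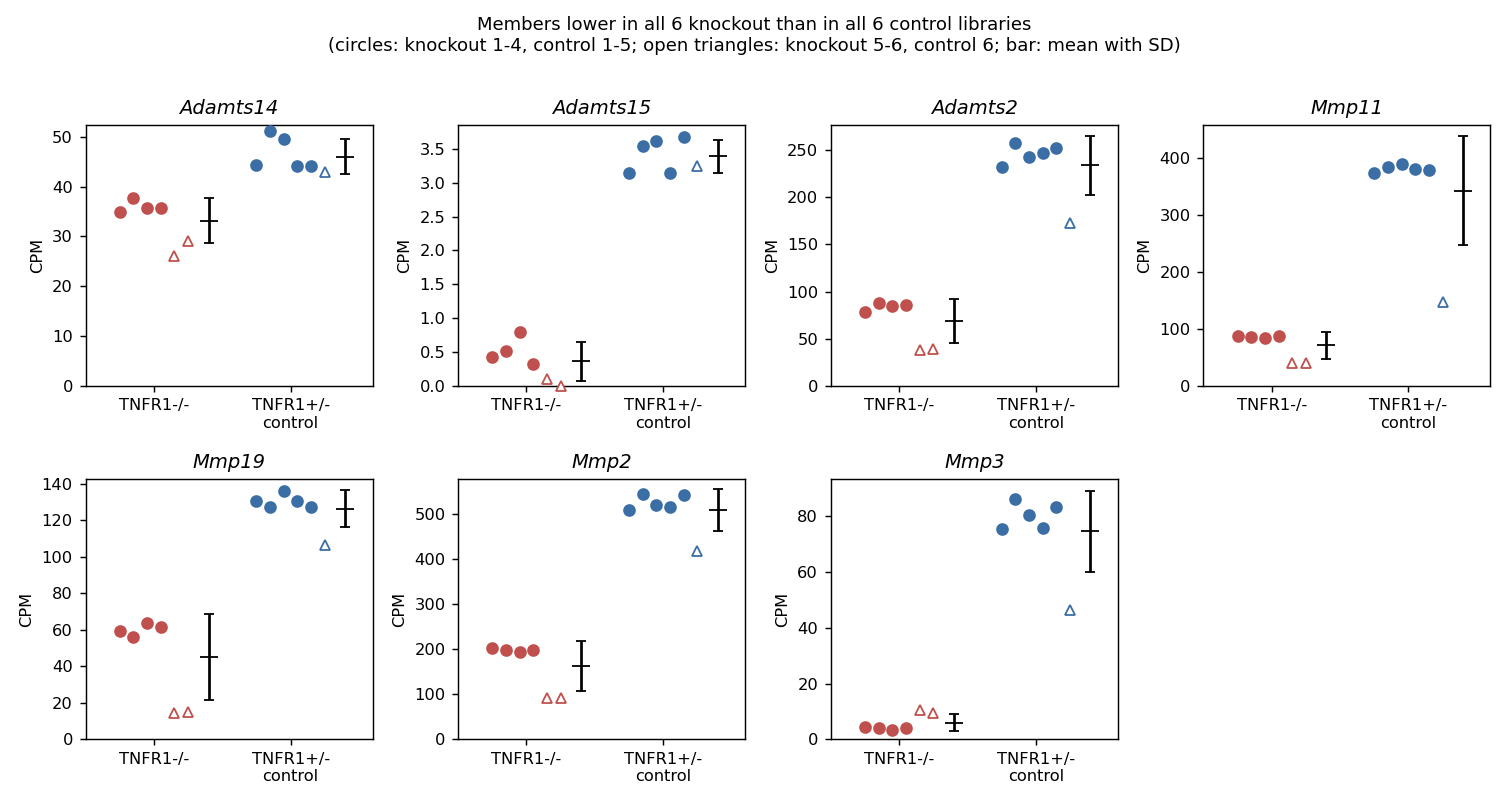
CPM per library of the 7 members whose 6 TNFR1-/- libraries (left) all lay below the 6 control libraries (right), with the mean and SD of each group beside its points. Open triangles mark knockout 5 and 6, which are the lowest knockout libraries except for Mmp3, and control 6.

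Procollagen N-proteinases remove the amino-terminal propeptide of collagen precursors, which allows fibrils to form, and 2 of 3 fell (66.7%, against 21.6% of all tested genes). Adamts2, the principal enzyme of the group for type I procollagen, was at 37.9 to 87.5 CPM in knockout (median 81.4) and 173 to 258 CPM in control libraries (median 245). Knockout 5 and 6 were the lowest knockouts and control 6 the lowest control, and the closest pair differed 1.97-fold. Mean levels were 68.7 ± 23.8 CPM in knockout and 234 ± 31.3 CPM in control (SD, n = 6 each), a log2 difference of -1.77 (SE 0.23, edgeR adjusted p = 9.52e-05). Adamts14 was at 26.1 to 37.7 CPM in knockout (median 35.2) and 42.9 to 51.1 CPM in control libraries (median 44.3), a smaller but separate difference (log2 difference -0.47, SE 0.10, adjusted p = 0.00232). Adamts3 was at 0.310 to 1.58 CPM in knockout and 1.06 to 2.54 CPM in control libraries and did not pass (adjusted p = 0.332).

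Of the 5 tested ADAMTS proteoglycanases, 2 fell (40%, against 21.6% of all tested genes) and 3 did not pass. Adamts15 had 0 to 5 counts in a knockout library and 43 to 51 counts in a control library, that is 0 to 0.791 CPM in knockout (median 0.369) and 3.14 to 3.67 CPM in control (median 3.39). The groups were separate, the highest knockout being knockout 3, and the log2 difference was -3.31 (SE 0.39, edgeR adjusted p = 5.2e-05). Adamts15 passed the filter on low counts through the control libraries alone. Its knockout counts lie near the floor, so the size of the difference is uncertain. Adamts4, aggrecanase-1, was at 5.40 to 14.3 CPM in knockout (median 10.8) and 13.8 to 25.1 CPM in control libraries (median 15.2). Knockout 1 and 4 reached into the control range (log2 difference -0.71, SE 0.25, adjusted p = 0.0359), and the call was lost without knockout 3, 5 or 6 or control 4, 5 or 6 (adjusted p = 0.0531 to 0.0712) and without knockout 5 and 6 together (0.0808). Adamts9, which also cuts versican, had a median of 1.95 CPM in knockout and 2.97 CPM in control libraries and did not pass (adjusted p = 0.0802, and 0.0285 without knockout 1).

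Adamts5, aggrecanase-2, varied widely within each genotype. It was at 198 to 222 CPM in knockout 1 to 4, 15.0 CPM in knockout 5, 17.0 CPM in knockout 6, 115 to 125 CPM in control 1 to 5 and 316 CPM in control 6. The groups overlapped, with control 6 above every knockout library (log2 difference -0.06, SE 0.61, adjusted p = 0.948), and the difference was 0.47 without knockout 5 and 6 (adjusted p = 0.168) and 0.82 without control 6 as well (2.13e-10). Adamts1, the first described member and a versican-cutting enzyme, showed the same order of sets. It was at 201 to 247 CPM in knockout 1 to 4, 34.8 CPM in knockout 5, 33.0 CPM in knockout 6, 84.1 to 91.5 CPM in control 1 to 5 and 275 CPM in control 6 (log2 difference 0.46, adjusted p = 0.502).

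The pair that cuts cartilage oligomeric matrix protein went opposite ways. Adamts12 was at 25.8 to 53.3 CPM in knockout 1 to 4, 14.9 CPM in knockout 5, 20.1 CPM in knockout 6, 7.91 to 11.2 CPM in control 1 to 5 and 25.3 CPM in control 6. All knockout libraries were above control 1 to 5, but control 6 was above knockout 5 and 6 (log2 difference 1.51, SE 0.37, edgeR adjusted p = 0.00564). Adamts7 was at 2.18 to 6.64 CPM in knockout (median 5.38) and 6.44 to 11.4 CPM in control libraries (median 7.09). It fell by 0.70 on the log2 scale (SE 0.24, adjusted p = 0.0342), and the call was lost without knockout 6 (0.0653), control 3 (0.0522), control 5 (0.0591) or control 6 (0.0626) and without knockout 5 and 6 together (0.0619). Adamts6 was at 27.7 to 50.4 CPM in knockout (median 40.1) and 20.3 to 45.5 CPM in control libraries (median 22.0), with control 6 the only control above the lowest knockout. It rose (log2 difference 0.63, SE 0.23, adjusted p = 0.0431), but not without knockout 1, 2 or 4 or any one of control 1 to 5 (adjusted p = 0.0834 to 0.0917). Adamts10, which binds fibrillin microfibrils, was at 50.9 to 56.1 CPM in knockout 1 to 4, 21.4 CPM in knockout 5, 21.1 CPM in knockout 6, 22.0 to 24.1 CPM in control 1 to 5 and 72.6 CPM in control 6 (adjusted p = 0.348, and 0.0171 without control 6).

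Among the inhibitors, Timp3 rose (33.3% of the tested ones, against 21.4% of all tested genes) and Timp1 and Timp2 did not pass. Timp3, the matrix-bound TIMP, was at 1012 to 1192 CPM in knockout (median 1112) and 389.9 to 1444 CPM in control libraries (median 394). All 6 knockouts were above control 1 to 5 and below control 6. The means were 1108 ± 77.4 CPM in knockout and 569 ± 428 CPM in control (SD, n = 6 each), a log2 difference of 0.96 (SE 0.33, edgeR adjusted p = 0.0301), and the call was lost when any one of control 1 to 5 was left out (0.0666 to 0.0672). Timp2, which inhibits MMPs and also helps MMP14 to activate pro-MMP2, was at 2749.8 to 2863 CPM in knockout 1 to 4, 833 CPM in knockout 5, 856 CPM in knockout 6, 922 to 996 CPM in control 1 to 5 and 3203 CPM in control 6. It was thus high in 1 set of each genotype (log2 difference 0.70, SE 0.42, adjusted p = 0.202). Timp1, a secreted inhibitor induced by many cytokines, was at 364 to 473 CPM in knockout 1 to 4, 985 CPM in knockout 5, 906 CPM in knockout 6, 264 to 279 CPM in control 1 to 5 and 672 CPM in control 6 (log2 difference 0.77, SE 0.33, adjusted p = 0.0755). Without control 6 both passed, Timp1 at 1.09 (adjusted p = 0.00714) and Timp2 at 1.18 (0.0127).

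**Figure D4:**
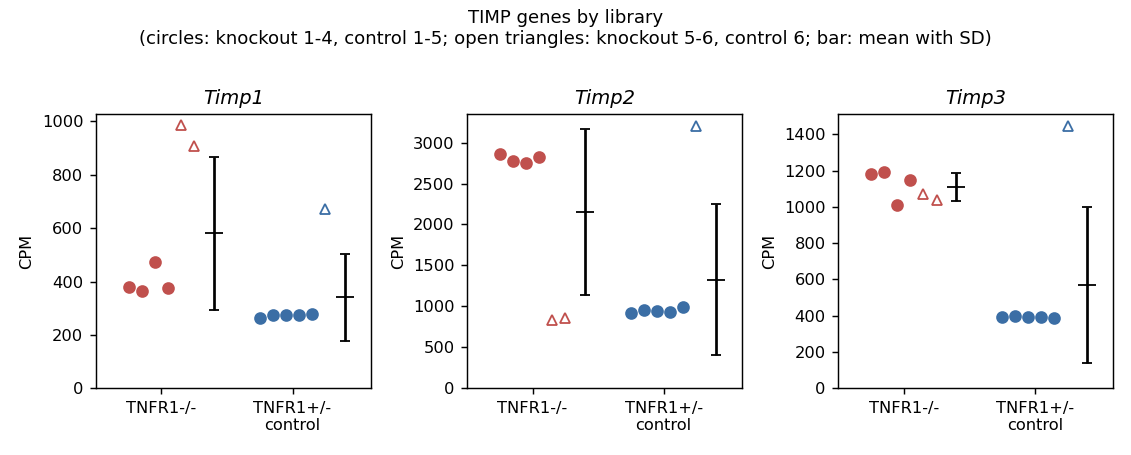
CPM per library of the 3 tested TIMP genes, TNFR1-/- left and control right, with the mean and SD of 6 libraries beside each group. Control 6 (open triangle on the right) is the highest library for Timp2 and Timp3, and knockout 5 and 6 (open triangles on the left) are the highest for Timp1.

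Across the 29 tested members, knockout 5 and 6 were both below knockout 1 to 4 in 20 (69%, against 36.6% of all tested genes) and both above in 5 (17.2%, against 35.6%). The 5 that were higher in knockout 5 and 6 were Mmp3, Mmp9, Mmp10, Mmp13 and Timp1. Control 6 was above control 1 to 5 in 18 members (62.1%, against 39.9%) and below them in 9 (31%, against 41.5%). By log2(CPM + 0.5), control 6 was nearer to the mean of knockout 1 to 4 than to that of control 1 to 5 in 14 members (48.3%, against 60.4%). These sets were read from the libraries and are not groups of the study.

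**Figure D5:**
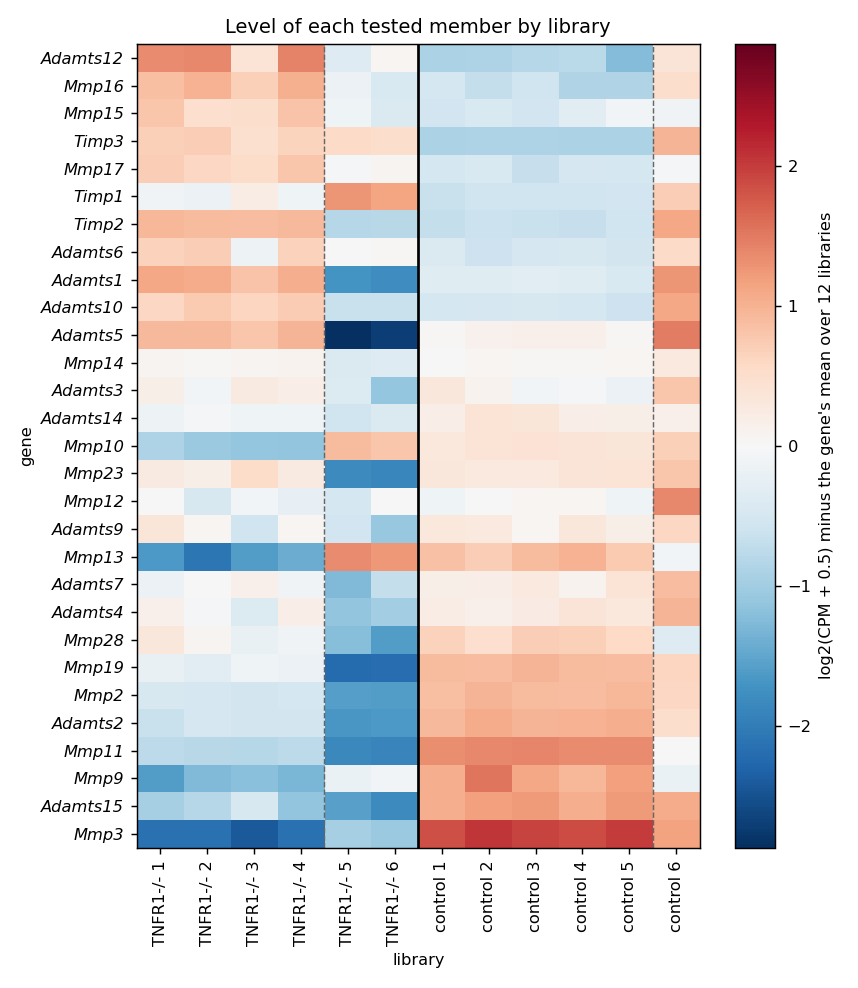
Level of each of the 29 tested members in every library, as log2(CPM + 0.5) minus the gene's mean over the 12 libraries, with TNFR1-/- 1 to 6 left of control 1 to 6 and genes ordered by log2 difference. Mmp3, Adamts15, Mmp11, Adamts2, Mmp2 and Mmp19, near the bottom, are lower in every TNFR1-/- than in every control library, while Timp2, Adamts1 and Adamts5 differ between the sets marked by dashed lines.

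Genes that act with these proteases were described from lists chosen by function. Of 10 tested ADAM proteases, the membrane-bound relatives that shed surface proteins, 2 were higher (20%, against 21.4% of all tested genes) and 3 lower (30%, against 21.6%). Adam17, the enzyme that releases TNF and TNF receptors from the cell surface, fell to 73.7 CPM in knockout, against 94.7 CPM in control (log2 difference -0.36, edgeR adjusted p = 0.00215), and Adam22, a receptor without protease activity, to 3.56 CPM in knockout, against 11.1 CPM in control (adjusted p = 0.000301). Of 5 tested ADAMTS-like proteins, which lack the protease domain, 1 was higher (20%) and 1 lower (20%): Adamtsl4 rose to a mean of 12.8 CPM in knockout, against 3.70 CPM in control (adjusted p = 0.046), and Thsd4 fell to a median of 2.22 CPM in knockout, against 5.84 CPM in control (adjusted p = 0.00226). The groups overlapped for Adamtsl4. It was at 13.8 to 19.8 CPM in knockout 1 to 4, 4.46 CPM in knockout 5 and 3.10 CPM in knockout 6. Control 1 to 5 were at 1.17 to 2.47 CPM and control 6 at 13.5 CPM. Of 4 tested astacin proteases and enhancers, 2 were higher (50%) and none lower: Tll1, a procollagen C-proteinase, rose to 163 CPM in knockout, against 48.4 CPM in control (adjusted p = 0.00143), and Pcolce2, an enhancer of that cleavage, rose to 2.64 CPM in knockout, against 0.770 CPM in control (adjusted p = 0.00194). For Tll1 the groups overlapped where control 6 (124 CPM) was above knockout 3 (120 CPM).

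Among 14 tested activators, receptors and other inhibitors, 4 were higher (28.6%) and 3 lower (21.4%), shares near the 21.4% and 21.6% of all tested genes. The proprotein convertase Pcsk5 fell to a median of 0.579 CPM in knockout, against 3.79 CPM in control (adjusted p = 0.000143), and Cd44, a hyaluronan receptor that docks MMPs at the surface, rose to 1085.5 CPM in knockout, against 276 CPM in control (adjusted p = 0.000643). Furin and the membrane-anchored MMP inhibitor Reck, named like Acan and Vcan after their values were seen, did not pass. Of 22 tested matrix substrates, 1 was higher (4.55%, against 21.4% of all tested genes), 4 were lower (18.2%, against 21.6%) and 17 did not pass. The 2 with the smallest adjusted p were Dcn (decorin), at 190.9 CPM in knockout and 621 CPM in control, and Spp1 (osteopontin), at 388 CPM in knockout and 1773 CPM in control. Aggrecan (Acan), the substrate that names the aggrecanases, had at most 1 count in a library, and versican (Vcan) was at 192 CPM in knockout and 191 CPM in control (adjusted p = 0.968).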

How the data were processed

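The table held expected counts per gene, which the authors deposited after RSEM 1.2.15 and Bowtie2 2.1.0, per the submitters' processing notes. Those notes name the build hg38 although the symbols are mouse, so the build is uncertain. The annotation and the strand setting are not stated in these sources. Expected counts were rounded to whole numbers, since 2.67 to 3.48% of values in a library had decimals. All 12 columns were matched to samples by title.

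Genes passing edgeR's filterByExpr (minimum count 10, minimum total 15) were tested, 12146 of 24411. Knockout was compared with control by edgeR 4.0.16 (R 4.3.3), with TMM scaling, the quasi-likelihood test and Benjamini-Hochberg adjustment over all tested genes, and calls were made at an adjusted p of 0.05. CPM used the TMM-scaled library sizes. The code was tested on simulated data, in which libraries differed by genotype alone and formed no sets. That test therefore does not show how the 4 sets affect the calls. Alternatives were other scalings and filters, DESeq2 1.42.0, limma-voom 3.58.1, a replicate block and leaving out each library. Fits without knockout 5 and 6, without these and control 6, and on 4 summed sets were added after the data were seen.

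Every member is accounted for. Values by library, or their range in each genotype or set, were given for each called member and for the uncalled member of highest mean CPM in a role group. For related lists the 2 called genes of smallest adjusted p were given. The members, lists and rules were chosen with earlier results of these data known. Sequences are from RefSeq (GRCm38.p6) and GENCODE M21, and neither was used for coordinates of the deposited table.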

Additional observations from a re-analysis of the deposited data

Results flagged for a closer look

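In 24 of 60 groups of 6 libraries, 1 library lay far from the other 5 by Dixon's test, against about 5% by chance (1 in 20), and in all 24 it was control 6. It was the highest control 16 times and the lowest 8 times. The test looks for a single outlying library, so libraries that stand apart together, such as knockout 5 and 6, can escape it. All groups come from the same libraries, so the 24 are not independent of one another.

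Control 6 was the highest control for all 3 tested inhibitors, with Timp1 at 672.3 CPM (next control 279.3), Timp2 at 3203 CPM (995.5) and Timp3 at 1444 CPM (400.3). Among the ADAMTS genes flagged by Dixon's test it was highest for Adamts1 at 275.2 CPM, Adamts5 at 315.7, Adamts10 at 72.56, Adamts12 at 25.31, Adamts6 at 45.53, Adamts4 at 25.06 and Adamts7 at 11.45 CPM. Among the flagged MMPs it was highest for Mmp14 at 1041 CPM, Mmp23 at 125.9, Mmp10 at 26.2, Mmp12 at 17.81, Mmp16 at 11 and Mmp17 at 10.87 CPM. Genes where control 6 was outermost by a smaller gap are not listed here.

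It was the lowest control for Mmp2 at 418.3 CPM, Mmp11 at 147.1, Mmp19 at 106.5, Mmp3 at 46.3, Mmp13 at 5.088 and Mmp28 at 4.325 CPM, and for Adamts2 at 172.7 CPM. It was also the lowest control for Tnfrsf1a, at 54.88 CPM, against 73.46 CPM in the next control. The part of any technical difference of this library was not tested.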

How the results depend on the processing

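The calls of Mmp2, Mmp3, Mmp11, Mmp17, Mmp19, Adamts2, Adamts12, Adamts14 and Adamts15 held in every alternative except the 4 summed sets, where edgeR called 0 genes higher, 0 genes lower, 0 members higher and 0 members lower. There Adamts1 (-0.44), Adamts10 (-0.34), Timp2 (-0.18) and Mmp13 (0.0028) changed sign on the log2 scale. Without knockout 5 and 6 and control 6, 4319 genes and 11 members were higher and 4508 genes lower, and Adamts3 (0.14), Mmp14 (0.038) and Adamts5 (0.82) changed sign. Without knockout 5 and 6, Adamts5 was at 0.47. Leaving out 1 library at a time gave 2148 to 3092 genes higher and 2270 to 2977 lower, 4 to 9 members higher and 7 to 12 lower, and -0.21 to 0.29 for Adamts5. Mmp9 was not tested when any one of control 1 to 5 was left out or under the stricter filter. The same replicate numbers recur in both genotypes, and whether they mark pairs is not known. Deviations from the genotype mean correlated at -0.364 to 0.184 between same-numbered libraries. These correlations cannot decide the question, because the deviations also hold the differences between sets. With the replicate block, 4 members were higher and 9 lower (1867 and 2107 genes), Adamts4, Adamts6, Adamts7, Mmp15 and Mmp16 were not called, and Mmp28 (adjusted p = 0.0177) and Timp1 (0.0293) were. Mmp28 was also called with library totals alone (0.0337), DESeq2 (0.0272) and limma-voom (0.0354), Timp1 with DESeq2 (0.0426), and Adamts9 with library totals alone (0.0466) and limma-voom (0.0459). With no filter Adamts6 was not called (0.0514), and Mmp8 and Adamts16 were. The cause of these changes was not tested. Depth limits what can be said of the 17 members with at most 6 counts, and of Adamts15, which had 0 to 5 counts in a knockout library.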
